A study of Caenorhabditis elegans with 2 samples.

Results

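The regions described here are summits of ranked BED-2 peaks that lay inside introns and far from any transcript start. They numbered 8597 of the 64322 merged regions in the ranked peak list of the series. A region entered when its summit, the position of its strongest signal, met 3 conditions on the ce11 genome. It lay inside an intron of a protein-coding gene, in no exon of any gene, and more than 1000 bp from every annotated transcript start. The 8597 members lay in 4173 host genes, and 136 of them lay in introns of more than 1 gene. Each member was a peak of 320 bp.

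Binding was measured by chromatin immunoprecipitation followed by sequencing (ChIP-seq) with an anti-GFP antibody. The animals were whole young adults of Caenorhabditis elegans strain RW12335, genotype st12335[TY1::EGFP::3xFLAG::bed-2] III, in which EGFP and FLAG were placed at bed-2 by genome editing. Per the labels they were synchronised as starved L1 larvae and collected at 63 hours, as 1 group of 2 biological replicates. Every tissue of the animal was pooled, no second genotype, stage or treatment was analysed, and the control library was not analysed here.

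BED-2 belongs to the proteins with a BED zinc finger, which binds DNA and is named after the Drosophila proteins BEAF and DREF. Introns are removed from the transcript by splicing, and in worms many are short while a minority are long. They can hold enhancers, nested genes, and sequence derived from transposable elements, which then occurs in many places of the genome.

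A region counted as reproducible when it overlapped a peak of the authors' conservative list. That list keeps peaks whose irreproducible discovery rate (IDR), a measure of how differently 2 replicates rank a peak, was at most 0.01. Of the 8597 members, 28 were in the list (0.326%, 95% interval 0.217 to 0.470), against a background of 0.880% of all merged regions. The 28 are named throughout by their host gene, and the sequences under the strongest of them come first.

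Windows reaching 50 bases to either side of the summit are shown for 5 of the members with the highest signal, in the 5′ to 3′ direction of the strand given, from RefSeq's copy of ce11. Capitals mark bases that recur elsewhere in the genome or next to the summit, in matches of at least 50 bases and 80% identity. The first 4 have no such match, and cmk-1, the member with the highest signal, is made of tandem units.
mom-1, chrX:6296556-6296656, + strand: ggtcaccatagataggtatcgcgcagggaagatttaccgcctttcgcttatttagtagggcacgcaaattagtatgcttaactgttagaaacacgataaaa
larp-1, chrIII:5013990-5014090, + strand: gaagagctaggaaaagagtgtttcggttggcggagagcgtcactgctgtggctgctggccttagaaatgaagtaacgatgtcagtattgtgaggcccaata
zfp-1, chrIII:8795826-8795926, + strand: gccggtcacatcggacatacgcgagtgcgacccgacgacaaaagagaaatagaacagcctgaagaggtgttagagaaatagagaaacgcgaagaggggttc
spop-1, chrIII:10094804-10094904, + strand: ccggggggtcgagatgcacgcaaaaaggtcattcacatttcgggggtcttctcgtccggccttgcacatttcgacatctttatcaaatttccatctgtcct
cmk-1, chrIV:1831338-1831438, + strand: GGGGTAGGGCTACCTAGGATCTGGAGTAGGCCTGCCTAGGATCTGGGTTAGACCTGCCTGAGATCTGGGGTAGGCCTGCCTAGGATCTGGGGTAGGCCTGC

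A further 5 windows show the recurring kind. Those in pph-5 and emb-4 hold closely related tandem repeats, and emb-4 is written from the minus strand so that the 2 can be read against each other. The window in srg-64 is a tandem array that matches the one in Y47H9B.2, which in turn matches the one in cmk-1. The Y46G5A.34 window matches that of the listed member in Y56A3A.28.
pph-5, chrV:19194206-19194306, + strand: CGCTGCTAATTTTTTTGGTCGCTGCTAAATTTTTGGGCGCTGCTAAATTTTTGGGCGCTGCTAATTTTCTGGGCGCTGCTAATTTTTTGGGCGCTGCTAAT
emb-4, chrV:18883295-18883395, - strand: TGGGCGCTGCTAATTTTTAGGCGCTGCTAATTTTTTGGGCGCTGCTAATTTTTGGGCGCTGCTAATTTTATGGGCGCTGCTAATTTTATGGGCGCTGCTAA
srg-64, chrX:15738752-15738852, + strand: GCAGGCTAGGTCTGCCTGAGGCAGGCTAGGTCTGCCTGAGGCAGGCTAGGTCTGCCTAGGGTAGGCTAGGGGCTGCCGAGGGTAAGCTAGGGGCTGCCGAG
Y46G5A.34, chrII:12778543-12778643, + strand: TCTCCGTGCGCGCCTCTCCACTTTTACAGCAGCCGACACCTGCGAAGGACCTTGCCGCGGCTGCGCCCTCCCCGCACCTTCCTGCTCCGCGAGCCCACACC
M01F1.8, chrIII:3500023-3500123, + strand: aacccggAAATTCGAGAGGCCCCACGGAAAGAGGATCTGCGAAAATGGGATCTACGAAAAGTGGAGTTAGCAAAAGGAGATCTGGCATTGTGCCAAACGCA

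The last window, in M01F1.8, had copies under listed peaks near gene starts. The copies nearest to eel-1 and nrde-2 are printed in the orientation of the M01F1.8 window. They match it from its base 25 and its base 24, counted from 1 at its left, to its last base, at 80.5% and 83.3% identity, and lay under regions with signals of 314.6 and 62.2.
eel-1 copy, chrIV:3050552-3050628, + strand: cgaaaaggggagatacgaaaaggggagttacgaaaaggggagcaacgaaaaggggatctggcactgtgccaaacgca
nrde-2 copy, chrII:10247780-10247857, + strand: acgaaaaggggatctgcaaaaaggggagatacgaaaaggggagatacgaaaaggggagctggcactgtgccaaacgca

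Signal is the value the authors' peak caller gave to each peak, on a scale that the sources used here do not state. Values for replicates 1 and 2 are the highest signal of an overlapping peak in that replicate's own ranked list. The member with the highest signal lay in intron 2 of cmk-1 (WBGene00000553), which encodes calcium/calmodulin-dependent protein kinase I. It spanned IV:1831228-1831547 and had a signal of 227.4 in the series list, 80.3 in replicate 1 and 143.6 in replicate 2. It ranked 25 among all merged regions, and the start nearest to its summit, 3240 bp away, was that of ccm-2. The kinase that activates CMK-1 is encoded by ckk-1 (WBGene00000518), whose intron 1 held the member III:5637365-5637684. Its signal was 103.7, with 39.6 in replicate 1 and 58.5 in replicate 2. The genes cmk-1 and ckk-1 thus each held a listed member that was higher in replicate 2.

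Genes of signalling and transport held the next ones. The gene mom-1 (WBGene00003394) encodes a Porcupine homologue needed to secrete Wnt proteins. Its intron 7, the last, held X:6296446-6296765 with a signal of 159.2, and 78.3 and 78.6 in replicates 1 and 2. The serotonin transporter gene mod-5 (WBGene00003387) held 2 listed members in intron 11, also its last. The first, I:3037935-3038254, had a signal of 157.8, with 92.9 in replicate 1 and 62.9 in replicate 2. The second, I:3035899-3036218, had 84.6, with 50.9 and 37.9 in replicates 1 and 2. Both mod-5 members were thus lower in replicate 2. The other gene with 2 listed members was daf-5 (WBGene00000901), a Ski/Sno-related gene of the TGF-β dauer pathway, in its intron 1 of 14446 bp. These were II:14040206-14040525 with 72.1, and 45.7 and 41.4 in the replicates, and II:14044220-14044539 with 67.9, and 33.0 and 37.0.

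The next members are described gene by gene, with no test of a shared theme. In brc-1 (WBGene00000264), the BRCA1 orthologue, III:3857088-3857407 in intron 8 had a signal of 117.4, with 65.6 in replicate 1 and 50.6 in replicate 2. In zfp-1 (WBGene00006975), which encodes an AF10 homologue, III:8795716-8796035 had 99.8, with 51.2 and 46.8. In larp-1 (WBGene00020097), a La-related RNA-binding protein gene, III:5013880-5014199 had 104.5, with 39.8 and 58.9. Of the 3, replicate 1 was higher in brc-1 and zfp-1 and replicate 2 in larp-1. In emb-4 (WBGene00001258), an intron-binding helicase gene related to Aquarius, V:18883185-18883504 had 67.8, with 35.1 and 38.9.

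Hosts with other enzymatic roles included let-268, pph-5 and nep-24. The collagen lysyl hydroxylase gene let-268 (WBGene00002497) held II:10034786-10035105 with a signal of 81.5, and 33.9 and 49.1 in replicates 1 and 2. The protein phosphatase 5 gene pph-5 (WBGene00012665) held V:19194096-19194415 with 77.4, and 37.6 and 40.1. The neprilysin family gene nep-24 (WBGene00013786) held IV:16925401-16925720 with 78.9, and 30.5 and 44.3, in the shortest listed intron, of 366 bp. All 3 had the higher value in replicate 2. The chemoreceptor family gene srg-64 held X:15738642-15738961 with 70.3, and 28.5 and 41.9. The autophagy gene epg-9 held IV:2602056-2602375, the listed member with the lowest signal, 64.5, with 32.3 and 37.3. The next lowest were Y6B3B.1 with 66.5, and 33.0 and 34.9, and emb-4.

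The remaining listed members are given with the series signal, then replicate 1 and replicate 2. In intron 1 lay Y46G5A.34 at 110.8 (40.5 and 69.5), spop-1 at 97.9 (48.5 and 43.1), T24H10.5 at 90.6 (45.6 and 47.5) and gei-4 at 73.3 (40.6 and 34.7). Of these, spop-1 and gei-4 were higher in replicate 1. In later introns lay Y56A3A.28 at 80.0 (36.3 and 52.6), Y41G9A.17 at 79.0 (41.3 and 37.0), Y47H9B.2 at 78.1 (31.6 and 46.6) and M01F1.8 at 76.4 (32.6 and 47.0). There too lay C11E4.8 at 75.6 (35.0 and 39.3), F01D5.10 at 73.5 (28.0 and 43.2) and miz-1 at 71.6 (28.8 and 42.7). Among these later introns, Y41G9A.17 alone was higher in replicate 1.

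**Figure D1:**
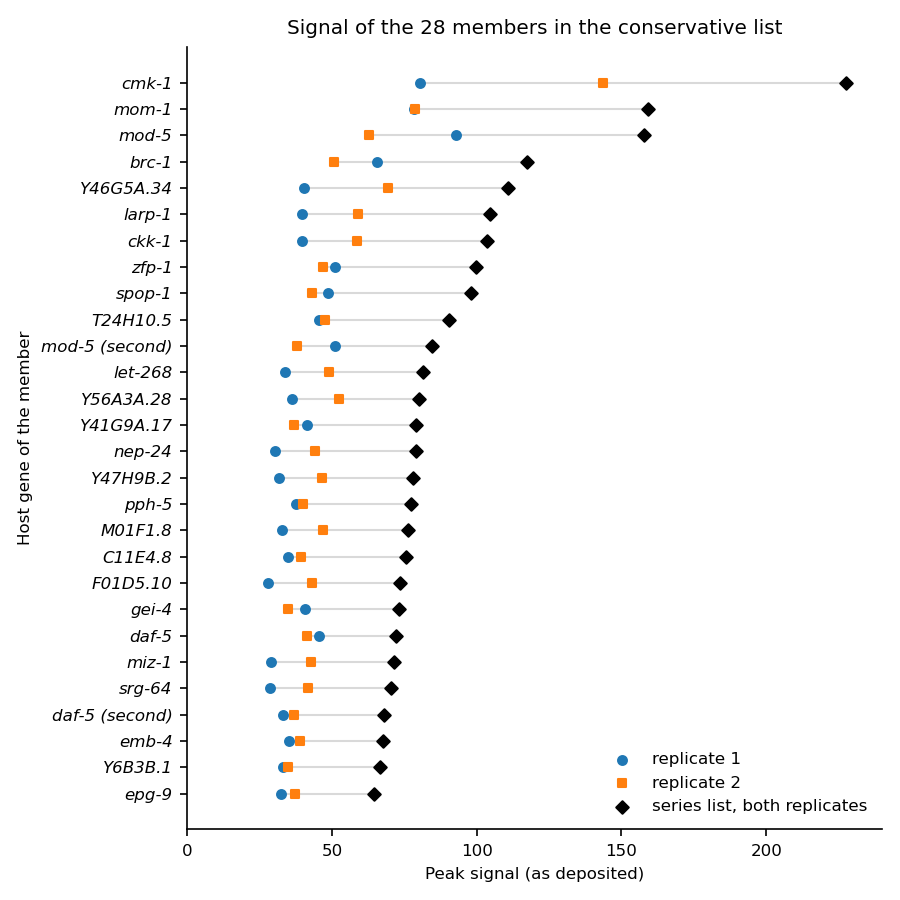
Signal (x axis, as deposited) of the 28 listed members, by host gene, in replicate 1 (circles), replicate 2 (squares) and the series list made from both (diamonds). Series signals run from 64.5 in epg-9 to 227.4 in cmk-1, and replicate signals from 28.0 to 143.6.

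All 28 listed members had a peak in the ranked list of each replicate, and 2611 (30.5%) of the 8569 members outside the list did. Of the others outside, 1989 had a peak in replicate 1 only, 1870 in replicate 2 only and 2099 in neither. The list was itself made from the replicates, so these counts are not independent of it. The ratio of replicate 2 to replicate 1 among the 28 ran from 0.68 in the first mod-5 member to 1.79 in cmk-1, with a median of 1.12, and it exceeded 1 in 20. After mod-5, the lowest ratios were 0.74 in the second mod-5 member and 0.77 in brc-1. The highest after cmk-1 were 1.72 in Y46G5A.34 and 1.54 in F01D5.10. Outside the list, the 2611 members had a median ratio of 1.16 and a range of 0.21 to 5.99, and the ratio exceeded 1 in 1642 of them.

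**Figure D2:**
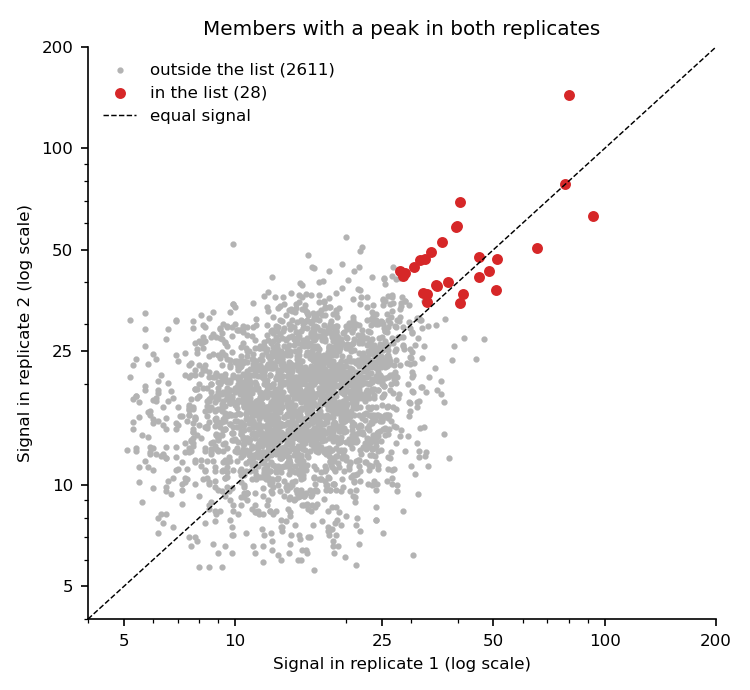
Signal in replicate 1 (x axis) against replicate 2 (y axis), both on log scales, for members with a peak in both replicates, 28 in the list (red) and 2611 outside it (grey), with a line of equal signal. The listed members lie at the upper right, from 28.0 in replicate 1 and 34.7 in replicate 2 upward, and single members outside the list exceed these values in 1 replicate or in both.

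Of the 28, 10 stood in a thresholded list made from a single replicate. The thresholded list of replicate 1 held 8 members (0.0931%, background 0.359%), and that of replicate 2 held 9 (0.105%, background 0.384%). Of the 28, 7 were in the first of these lists, 6 in the second, 3 in both (cmk-1, the first mod-5 member and brc-1) and 18 in neither. The optimal list, the authors' other thresholded list of the series, held 36 members (0.419%, background 0.917%), 25 of them among the 28. The listed members outside it were miz-1, the second daf-5 member and epg-9.

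Members near the threshold were close in signal. On the −log10 scale the threshold is an IDR of 2, the lowest listed member had 2.0003, and the highest outside had 1.989. Of the members outside, 20 exceeded the lowest listed signal, and all 20 had a peak in both replicates. The 5 highest were in stim-1, mef-2, tat-6, scl-20 and mter-4. The calcium sensor gene stim-1 had a signal of 73.8, with 47.1 in replicate 1 and 27.1 in replicate 2. The MADS-box factor gene mef-2 had 73.4, with 27.9 and 41.3. The others had 71.9 (19.9 and 54.7) in tat-6, 71.8 (22.1 and 51.0) in scl-20, and 71.8 (32.5 and 35.1) in mter-4. Replicate 2 was the higher in 4 of these 5, stim-1 being the exception.

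Set beside other regions, intronic summits far from starts were less often listed than most. Intronic summits within 1000 bp of a start were in the list in 58 of 9309 cases (0.623%, interval 0.473 to 0.805). Members were lower by 0.297 percentage points, and the 95% Newcombe interval of the difference, -0.505 to -0.096, did not reach 0. Summits outside genes and equally far from starts were listed in 54 of 7744 cases (0.697%), and the difference was -0.372 points (-0.606 to -0.154). Exonic summits equally far from starts were listed less often, in 16 of 11560 cases (0.138%), so that members were higher by 0.187 points (0.055 to 0.341). The remaining 27112 regions were listed in 410 cases (1.51%). Intervals here and below cover counting error over regions only, treat regions as independent although some share sequence, and say nothing of new libraries. Read counts were not part of the files, and the depth of each replicate is unknown.

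The typical member differed little from other regions in signal. The median signal of members was 23.4 (95% interval 23.2 to 23.7), against 23.6 for intronic summits near starts, 23.5 for those outside genes, 24.8 for exonic ones and 24.2 for all regions. The upper tail differed more, with 1 in 100 members above 58.0, against 63.5 near starts, 68.8 outside genes and 69.5 of all regions.

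The length of the intron went with presence in the list. Introns of 2000 bp or more held 18 listed of 2813 members (0.640%), and shorter introns 10 of 5784 (0.173%). The difference was 0.467 points (Newcombe interval 0.191 to 0.845). In the thresholded list of replicate 1 alone it was 0.179 points (0.031 to 0.431), and in that of replicate 2 alone 0.109 points (-0.040 to 0.350), which includes 0. By bin, the counts were 1 of 2420 under 500 bp (in nep-24), 1 of 1736 from 500 to below 1000 bp (in F01D5.10), 8 of 1628 from there to below 2000 bp, 11 of 1362 from there to below 5000 bp, and 7 of 1451 at 5000 bp or more. The shares were 0.0413%, 0.0576%, 0.491%, 0.808% and 0.482%, so the rise lay near 1000 bp and the intervals of the 3 longest bins overlapped. In all, 26 of the 28 lay in introns of at least 1000 bp.

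The members themselves were spread evenly over intron sequence. Per Mb of intron that could hold a member there were 602 members in introns under 500 bp, 483, 468 and 516 in the next bins, and 610 in the longest. Listed members per Mb were 0.249, 0.278, 2.30, 4.17 and 2.95 in the same order. Median signal hardly moved, between 22.9 and 24.0 over the 5 bins. The value exceeded by 1 in 100 members was 52.5, 54.4, 59.1, 66.8 and 61.7.

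Exon sequence under the peak moved with length. The 320 bp peak reached an exon in 93.8% of members in introns under 500 bp and in 3.79% of those in introns of 5000 bp or more. Of the 28, it did so in 2, mom-1 and nep-24, against 44.3% outside the list. Among members whose peak touched no exon, 18 of 2609 (0.690%) in introns of 2000 bp or more were listed and 8 of 2193 (0.365%) in shorter ones. That difference, 0.325 points, had an interval of -0.110 to 0.762, which includes 0. The part of exon sequence in the length difference was not tested. GC content moved too, from a median of 35.6% in introns under 500 bp to 39.6% in the longest bin.

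Order along the transcript went with the list less clearly. First introns held 7 listed of 1056 members (0.663%), the second 2 of 949 (0.211%), the third 3 of 1056 (0.284%) and later ones 16 of 5536 (0.289%). First minus later introns gave 0.384 points (0.013 to 1.090). First introns were also long, with a median of 5344 bp against 882 bp for later ones. Within introns of 2000 bp or more, first introns had 7 of 868 (0.806%) and later ones 11 of 1945 (0.566%), a difference of 0.241 points (-0.367 to 1.126). Among shorter introns the first held 0 of 188, which allows up to 1.60%, and later ones 10 of 5596 (0.179%). Length kept a difference within later introns, at 0.387 points (0.096 to 0.839). In replicate 1 alone the order difference was 0.002 points (-0.124 to 0.444), and in replicate 2 alone 0.097 points (-0.073 to 0.597).

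**Figure D3:**
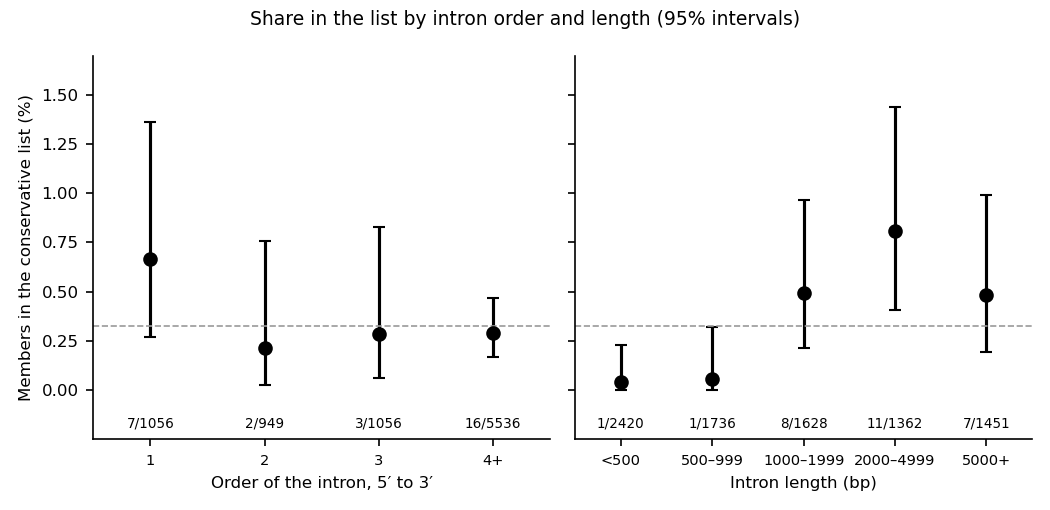
Percent of members in the conservative list (y axis) by intron order (left) and intron length in bp (right), with 95% Clopper-Pearson intervals as bars and listed/all members under each point. The dashed line is the share over all members, 0.326%, and the 2 shortest length bins lie below it at 0.0413% and 0.0576%.

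The 7 listed members in first introns were in Y46G5A.34, ckk-1, spop-1, T24H10.5, gei-4 and daf-5, the last with 2. Last introns held another 7 of 1495 members (0.468%), against 21 of 7102 (0.296%) elsewhere, a difference of 0.173 points (-0.115 to 0.678). For 5 of the 28 the order was different in another transcript of the gene, among them zfp-1, where it ran from 1 to 6. Median signal was 23.5 in first introns and 23.4 in later ones.

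Within the intron, listed summits stood away from splice sites. Their distance from the 5′ splice site had a median of 1073 bp, from 86 bp in nep-24 to 11801 bp in daf-5. To the 3′ splice site the median was 1464 bp, from 225 bp in F01D5.10 to 7575 bp in ckk-1. Outside the list, the medians were 492 bp and 431 bp in introns of median length 1040 bp, against 2563.5 bp for the 28. Of the 28, 11 lay nearer to the 3′ splice site. The nearest start belonged to the host gene in 15 and to a protein-coding gene in 23.

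**Figure D4:**
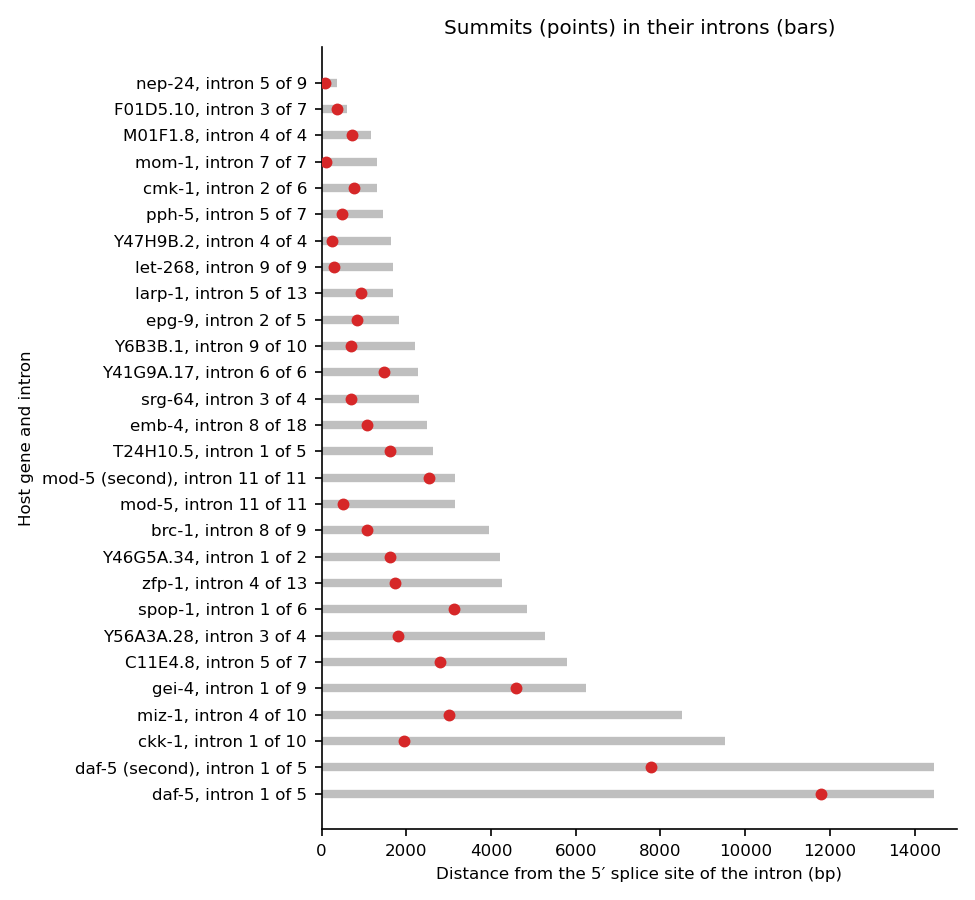
Introns holding the 28 listed members (bars, length in bp from the 5′ splice site on the x axis) with the summit as a point, ordered by length. Introns run from 366 bp in nep-24 to 14446 bp in daf-5, and 11 summits lie in the right-hand part, nearer to the 3′ splice site.

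The members were spread unevenly over host genes. The cadherin gene hmr-1 had most members, 32, followed by the CREB gene crh-1 and the protein kinase D gene dkf-2 with 22 each, gcn-1 with 21 and the AMPK subunit gene aakg-1 with 19. Of the 116 members in these 5 genes, 0 were listed, which allows up to 2.59% and so includes the 0.326% of all members. Their highest signals ran from 50.2 in dkf-2 to 61.8 in crh-1. Among hosts of listed members, daf-5 had 15 members and 2 listed, emb-4 13 and 1, ckk-1 12 and 1, and mod-5 8 and 2. Of 2423 genes with a single member, 7 had it listed (0.289%). Of 1403 genes with 2 to 4 members, 11 had a listed member (0.784%), and of 347 with 5 or more, 8 did (2.31%). Counted per member, the shares were 0.289%, 0.306% and 0.387%, and so differed less than the shares per gene.

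The gene bed-2 itself hosted 1 member, at III:11465280-11465599 in intron 5. Its signal was 8.1, replicate 1 had no peak there, replicate 2 had 10.1, and it was not in the list.

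Fixed lists of 44 to 73 genes by function gave few listed members. They do not hold every gene of a function. Of the hosts of listed members, only cmk-1, ckk-1 and zfp-1 stood in any of them. All the others, among them mod-5, larp-1, emb-4 and pph-5, stood in none, so the counts cover the genes in these lists only. Of 57 genes of signalling kinases and phosphatases, 40 hosted 160 members, of which 2 were listed, in cmk-1 and ckk-1 (1.25%, interval 0.152 to 4.44, which includes the 0.326% of all members). Of 99 members in 31 genes of transcription and chromatin, 1 was listed, in zfp-1 (1.01%, 0.0256 to 5.50). None was listed among 173 members in axon guidance and adhesion genes, 152 in neuronal and synaptic genes, 72 in muscle genes, 61 in genes of RNA processing and translation, and 35 in germline and small RNA genes. A count of 0 allows up to 1.73%, 1.97%, 4.17%, 4.92% and 8.57% in these, so the smaller lists say little. Median signal in the 7 lists lay between 22.1 and 26.6.

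Sequence under the listed summits was rich in G and C. The median GC content of the windows around the summit was 53.0% in the 28 and 37.6% in members outside, and 27 of the 28 were above the latter. F01D5.10 had the highest, 75.2%, and Y41G9A.17 the lowest, 30.7%. Of the 28, 18 were above 49.5%, the level that 1 in 10 members outside exceeded. The next 100 members by signal, from 54.1 to 73.8, had a median of 48.5%, nearer to the listed ones.

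Words of 5 to 8 bases were searched on both strands of these windows. The words ACGCGC and GTACAC are the ones that earlier work on these data found at listed regions. ACGCGC was in 1 of the 28 (3.57%, interval 0.0904 to 18.3), in miz-1, against 2.16% of members outside, and in 14.9% of the other 538 listed regions. GTACAC was in 0 of 28, against 2.46% outside and 11.5% of the other listed regions. That count of 0 allows up to 10.7% by the share of 3 counts and up to 12.3% by the exact interval. With 28 windows, neither share could be told apart from that of members outside, nor ACGCGC from the other listed regions. For GTACAC the share of the other listed regions lay between the limits given, so that comparison was not settled. The core of the BEAF site, CGATA, was in 2 of the 28, mom-1 and Y41G9A.17 (7.14%), against 8.92% of members outside. The full DREF site TATCGATA was in 0 of 28 and in 0.0583% of members outside. GATAAG was in 1 (3.57% against 2.92%), the second daf-5 member. GAGAGA was in 4, gei-4, the first daf-5 member, Y6B3B.1 and epg-9 (14.3%, interval 4.03 to 32.7, against 5.92%). In the other 538 listed regions the shares were 11.2% for CGATA, 0 for TATCGATA, 2.97% for GATAAG and 16.4% for GAGAGA. The GAGAGA share of the 28 was thus near that of other listed regions. A word in a window is a description and not a site.

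Many listed windows had copies elsewhere in the genome. A copy was a match of at least 50 bases and 80% identity more than 1000 bp from the summit. Of the 28, 17 had at least 1 copy (60.7%, interval 40.6 to 78.5), against 3438 of 8569 members outside (40.1%, 39.1 to 41.2) and 48 of the next 100 by signal. Of members with a copy, 0.492% were listed, against 0.214% of those without, a difference of 0.278 points (0.028 to 0.587). Further matches of the window within 1000 bp of the summit, on either strand and at any spacing, were found in 6 of the 28 (21.4%) and 16.1% outside. Only the 6 were examined for tandem repeats. Neither kind was found in 10 of the 28, namely mom-1, larp-1, zfp-1, spop-1, Y41G9A.17, gei-4, both daf-5 members, miz-1 and epg-9. How reads that match several copies were placed is not given in the sources used here, so the signal of a copy cannot be told apart from that of a near-identical one.

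Most listed members with a copy had at least 1 copy under a listed peak, although most of the copies were not under such peaks. Of the 17 listed members with a copy, 14 had a copy in the list (82.4%, interval 56.6 to 96.2). Of the 3438 outside, 553 did (16.1%, 14.9 to 17.4). The 2 shares are not alike, because listed members could count each other and members outside could not. The only listed copy of the pph-5 window was in emb-4, and the reverse, and the listed copies of the Y47H9B.2 window were in cmk-1. Among the next 100 by signal, 48 had a copy and 19 had a copy in the list, a larger part than among all members outside. Counted by copy, 62 of the 481 copies of listed members were in the list (12.9%), and 844 of the 725678 copies of members outside (0.116%). These shares weigh each window by its number of copies and so cannot be compared as shares of windows. The largest number was 107 in the 28, in nep-24, while 1 window in zfh-2 outside the list had 1689. The 62 fell in 50 distinct listed regions, of which 9 were listed members too, 5 intronic summits near a start, 8 summits outside genes far from starts, and 28 other regions.

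The windows in brc-1 and the first mod-5 member were related, and each had copies in listed regions of higher signal. They matched each other over 73 bases at 80.8% identity. The brc-1 window was identical over 73 bases to the region upstream of mog-4, whose signal was 458.8, with 222.2 in replicate 1 and 243.5 in replicate 2. The mod-5 window was identical over 75 bases to the region near the non-coding RNA C46C2.12, with a signal of 328.3 (167.0 and 155.9), and to the region near the pseudogene WBGene00014975, with 222.0 (94.7 and 126.5). Of the 16 copies of the first mod-5 window, 9 were in the list, with signals from 117.4 to 458.8. Another 5 lay under ranked peaks outside the list, with 28.7 to 66.6, and 2 under none. Of the 18 copies of the brc-1 window, 7, 5 and 6 fell in these classes. Identical copies fell in both classes, since 2 copies identical to the brc-1 window over 72 bases were ranked outside the list.

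The 2 listed windows of mod-5, 2036 bp apart, recurred as a pair. At 12 other places, copies of both lay between 1593 and 2504 bp apart. The copy of the first window was in the list at 8 of these places, and that of the second at 3, where both were listed. At the remaining 4 places neither was. The place in brc-1 was among the 3, with signals of 117.4 for the listed member and 143.9 for the region near the pseudogene WBGene00164983. At mog-4, the region of 458.8 was paired with a copy of 77.6 outside the list. Of the 10 places with a signal at both copies, the first was higher at 9, and brc-1 was the exception.

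The window in let-268 was identical over its whole length to a copy at II:10033674-10033774, in the same let-268 intron. The region over that copy, near mtcu-2, had a signal of 288.0 (150.6 in replicate 1 and 135.8 in replicate 2). Over its whole length the window was also identical to the region near vps-39, with 131.3 (86.8 and 46.5). It also matched the region near unc-85 over its whole length, with 174.7 (94.5 and 83.2). Of its 24 copies, 9 were in the list, with 75.3 to 288.0, and 8 were ranked outside it, with 21.7 to 71.3, of which 7 were identical to the whole window. The member itself, at 81.5, thus stood near the lower end of its listed copies.

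The M01F1.8 window, printed above, had 92 copies of lower identity, at most 86.5%. Of these, 15 were in the list, with signals from 62.2 to 314.6 and identities from 80.3% to 84.6%. The highest were near eel-1, a ubiquitin ligase gene, at 314.6 (172.5 and 147.0), dnj-28, a chaperone gene, at 283.0 (141.0 and 134.8), rps-24, a ribosomal protein gene, at 240.5 (147.0 and 91.1), and atad-3 at 229.9 (132.5 and 97.2). At 76.4 the intronic member was below these. A further 46 copies were ranked outside the list, with signals from 5.0 to 93.4 and identities from 80.0% to 86.5%. The search kept no match below 80%.

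The windows in Y56A3A.28, ckk-1 and Y46G5A.34 belonged together through the first. Those in ckk-1 and Y56A3A.28 were 96.0% identical over their whole length, and those in Y56A3A.28 and Y46G5A.34 81.4% over 102. Their listed copies outside the members were near M01A12.4, with 91.7 (33.0 in replicate 1 and 54.8 in replicate 2), and near K09B11.4, with 79.5 (29.9 and 46.3). All 5 listed regions, members included, were higher in replicate 2. Other copies of the ckk-1 window, at 96.0% identity or more, had signals of 25.8 and 42.6 outside the list, and a further 2 copies lay under no ranked peak. The T24H10.5 window had 20 copies of at least 86.3% identity, 3 of them in the list, with 96.0 to 127.4, and 15 ranked outside it, with 22.5 to 65.4.

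Tandem repeats formed the last group. The pph-5 window matched that of emb-4 over its whole length at 93.1% identity, and each equalled itself best at a shift, of 18 bp in pph-5 (83.1% of bases) and 35 bp in emb-4 (80.3%). The cmk-1 window equalled itself over 84.8% of bases at a shift of 22 bp. By the search used, the window had no copy of 50 bases elsewhere, but its array reached beyond the window and did. Y47H9B.2 matched that array at IV:1831318-1831380, partly outside the window, over 63 bases at 84.1%. The srg-64 window matched that of Y47H9B.2 over 51 bases at 80.4%. F01D5.10 equalled itself over 87.5% of bases at a shift of 21 bp. The best shifts in Y47H9B.2 and srg-64, of 32 and 20 bp, left fewer bases equal, 71.0% and 67.9%. The other 22 listed members were not examined for tandem repeats. Replicate 2 was higher than replicate 1 in all 6 that were, some of them related as given, and in 14 of those 22. It was also higher in 1642 of the 2611 members outside the list with a peak in both replicates.

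For 3 windows with copies, none of the copies was in the list. These were nep-24 with 107 copies, Y6B3B.1 with 67 and C11E4.8 with 9, of which 74, 35 and 5 lay under ranked peaks outside the list, with signals up to 70.5, 71.8 and 55.5.

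**Figure D5:**
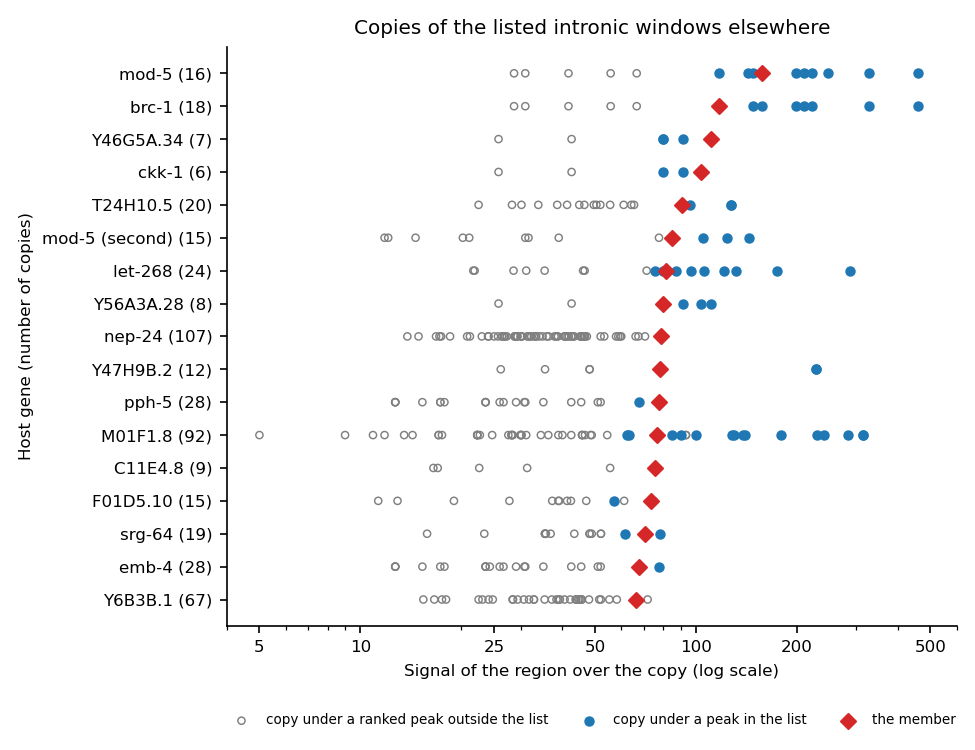
Signal (x axis, log scale) of the regions over copies of the 17 listed windows that have any, by host gene with the number of copies, for copies in the list (blue), copies under ranked peaks outside it (open) and the member itself (red). Copies under no ranked peak are not drawn, and for mod-5, brc-1, let-268 and M01F1.8 listed copies reach 458.8, 458.8, 288.0 and 314.6, above the member.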

How the data were processed

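ChIP-seq peaks of 2 biological replicates were taken from 8 deposited peak lists on ce11. According to a text deposited with each sample, a replicate's lists were made from its alignment with a control, and those of the series from the alignments of both. The names of the aligner and the caller were not given in the sources used here. Each peak carries, as the authors deposited it, a signal value, a summit offset (another deposited column, in bp) and, in ranked lists, the −log10 of the global IDR. Signal is the authors' own value and was used only to describe and rank peaks. In each ranked list, 2 matched-peak signal columns that could not be tied to a sample were not used.

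The 82301 ranked peaks were merged by single linkage where they shared at least 1 base, and each region kept its strongest peak. Introns, exons and starts came from Ensembl release 115, and sequence from RefSeq's copy of ce11, on 6 chromosomes. All peak ends lay inside its chromosomes. Order and length came from the protein-coding transcript with the longest summed exons whose intron holds the summit. Presence in a list meant 1 shared base. Copies were searched with blastn 2.17.0 (word size 11, E value 0.001), keeping at most 300 matches per window and chromosome, a limit that 554 windows reached, so their copies are undercounted. Shares have Clopper-Pearson and differences Newcombe 95% intervals, and medians have order-statistic intervals. A count of 0 is given with the share that 3 counts would make. No p-value was computed, since 1 group gives no comparison of conditions and regions are not replicates. Python 3.11.15, numpy 2.4.6, pandas 2.3.3, scipy 1.17.1 and matplotlib 3.10.9 were used, and scripts were tested on simulated data.

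Members, gene lists and words were chosen with earlier results of these data known. Named are all 28 listed members, the 5 highest outside, the 5 genes with most members and bed-2. Windows shown are those of the 8 highest listed members outside a chromosome that is not printed here, and of members that match another, leaving out windows identical to that chromosome over 50 bases or more. M01F1.8 and its copies were added after their values were seen. Alternatives covered the list, IDR threshold, overlap, merging, start distance, transcript, ranked list and each replicate alone. Leaving out members with copies or with exon sequence, and a length limit of 1000 bp, were chosen after seeing the data.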

Additional observations from a re-analysis of the deposited data

How the results depend on the processing

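Of 63 alternative values for 6 results, 47 stayed within the interval or 1.5 times of the value reported, and 16 moved. The difference in median signal between first and later introns, 0.0253, whose interval includes 0, turned to -0.232 with more than 500 bp to starts. No other result turned direction. At an IDR of at most 0.001, 5 members remained above the threshold (0.0582%), and introns of 2000 bp or more exceeded shorter ones by 0.0721 points. Without merging, the median signal was 20.0. With more than 2000 bp to starts, 12 members were in the list. Leaving out members with a copy elsewhere gave 11 in the list (0.214%), and leaving out those whose peak touches an exon gave 0.541%. With each replicate left out in turn, the count was 8 to 9, the share 0.133% to 0.158% and the median signal 14.1 to 16.5. In these single-replicate lists first introns exceeded later ones by 0.00670 to 0.139 points, and long introns exceeded shorter ones by 0.166 to 0.257 points. The cause of these shifts was not tested, except that the single-replicate and 0.001 lists hold fewer peaks. No paired analysis was possible because there is 1 group. With 28 listed members, differences between bins of a few counts are not resolved.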

Other observations

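The chromosomes held similar shares of listed members, as a description with few counts. Chromosome III had most, 8 of 1604 members (0.499%, interval 0.216 to 0.980), and chromosome V fewest, 2 of 1456 (0.137%, 0.0166 to 0.495). The X chromosome had 4 of 1568 (0.255%, 0.0695 to 0.652), all of them outside the thresholded list of replicate 2, and 1 of them, mom-1, in that of replicate 1.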
